A study of Mus musculus with 9 samples.

Results

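Prdx2, Gsta4, Duox1 and Sod1 are the 4 genes from 6 lists of redox genes among the 49 genes that could be named on arrays of mouse aorta. Prdx2, Gsta4 and Duox1 were taken by their probe identifiers (A_51_P147207, A_51_P112223 and A_51_P475138), and Sod1 by the transcript that the array design pairs with its probe (A_51_P425205). Each gene has 1 probe, printed as 10 spots per array. The study compared 3 groups of male C57BL/6J mice, with 1 array per mouse and 3 mice per group, and asked by its title what sitagliptin does to RNA in the obese aorta. The vehicle group is described by strain and vehicle alone, with no diet named. DIO mice received a high-fat diet for 4 months and no drug. DIO+sitagliptin mice were high-fat diet-fed and took 3 mg/kg of sitagliptin by mouth each day, and their label states neither how long the diet nor how long the drug was given. Sitagliptin inhibits DPP-4, the peptidase that degrades incretin hormones.

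Aerobic cells form superoxide and hydrogen peroxide, both as by-products of respiration and through dedicated NADPH oxidases. Superoxide dismutases convert superoxide to hydrogen peroxide, peroxiredoxins and related enzymes reduce the peroxide, and glutathione transferases conjugate reactive products such as the aldehydes left by oxidized lipids. In the vessel wall superoxide consumes nitric oxide, the dilator released by endothelium, which is why this chemistry is studied in obesity. Of the members, Duox1 makes hydrogen peroxide, Sod1 is the copper-zinc dismutase of the cytosol, Prdx2 reduces peroxide at a cysteine, and Gsta4 conjugates 4-hydroxynonenal and similar aldehydes.

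The Sod1 probe is paired with a transcript that GENCODE classes as a retained intron, and not with the spliced coding mRNA. The intron-retaining transcript has 3 exons and 3970 bases, against 5 exons and 641 bases for the spliced one. It keeps intron 1 (1850 bases) and intron 2 (1479 bases), so that 83.9% of its length is intron. The edges of intron 1 are shown because they are where these transcripts part. All lines read 5′ to 3′ on the plus strand of chromosome 16 in GRCm38, as GENCODE M21 gives the transcripts. Capitals mark exon 2 in the first line and the retained intron in the other lines, which lie at chr16:90220890-90220969 and chr16:90222740-90222819.
Spliced Sod1, exon 1 to exon 2: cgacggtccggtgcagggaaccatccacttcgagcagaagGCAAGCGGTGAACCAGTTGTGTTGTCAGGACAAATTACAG
Intron-retaining Sod1, exon 1 to retained intron: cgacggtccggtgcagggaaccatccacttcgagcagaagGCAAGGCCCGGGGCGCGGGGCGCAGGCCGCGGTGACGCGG
Intron-retaining Sod1, retained intron to exon 2: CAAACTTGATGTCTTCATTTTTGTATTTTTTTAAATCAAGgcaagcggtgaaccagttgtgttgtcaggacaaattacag
The first 5 bases after exon 1 are shared and the sequences then differ. Probe sequences were not used here, so whether the Sod1 probe lies in an exon or in a retained intron was not analysed, and its values are those of this probe rather than of Sod1 mRNA as a whole. The accessions of the other probes are NM_011563 for Prdx2, NM_010357 for Gsta4 and NM_001099297 for Duox1.

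Intensities are the processed spot signals, in scanner units, and those of different probes are not comparable as amounts of RNA. Having 3 arrays per group limits the precision. The background level of each array was read from 15 probes named NEGATIVE, of which the brightest had 25.1 to 48.6 units. Of the NEGATIVE spots, 22.2% to 71.1% per array were themselves marked as well above background. This mark, which also sets the filter on probes, therefore does not show by itself that a gene is expressed. The scan records place 7 arrays on 12 November 2020 and the arrays vehicle 3 and DIO+sitagliptin 3 on 20 November, and the median spot was 19.4 to 37.6 units on the earlier arrays and 12.8 and 13.5 units on the later pair. The median NEGATIVE probe had 8.30 to 25.1 units on the earlier arrays, and 1.32 and 2.12 units on the later pair. No DIO array has the later date, so scan date and group overlap in part. Of 57 cell type marker genes only Il2, Mzb1 and Chgb have a named probe, and none for endothelium, smooth muscle, fibroblasts, adipocytes or macrophages does, so the labelled tissue could not be checked against its markers.

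**Figure D1:**
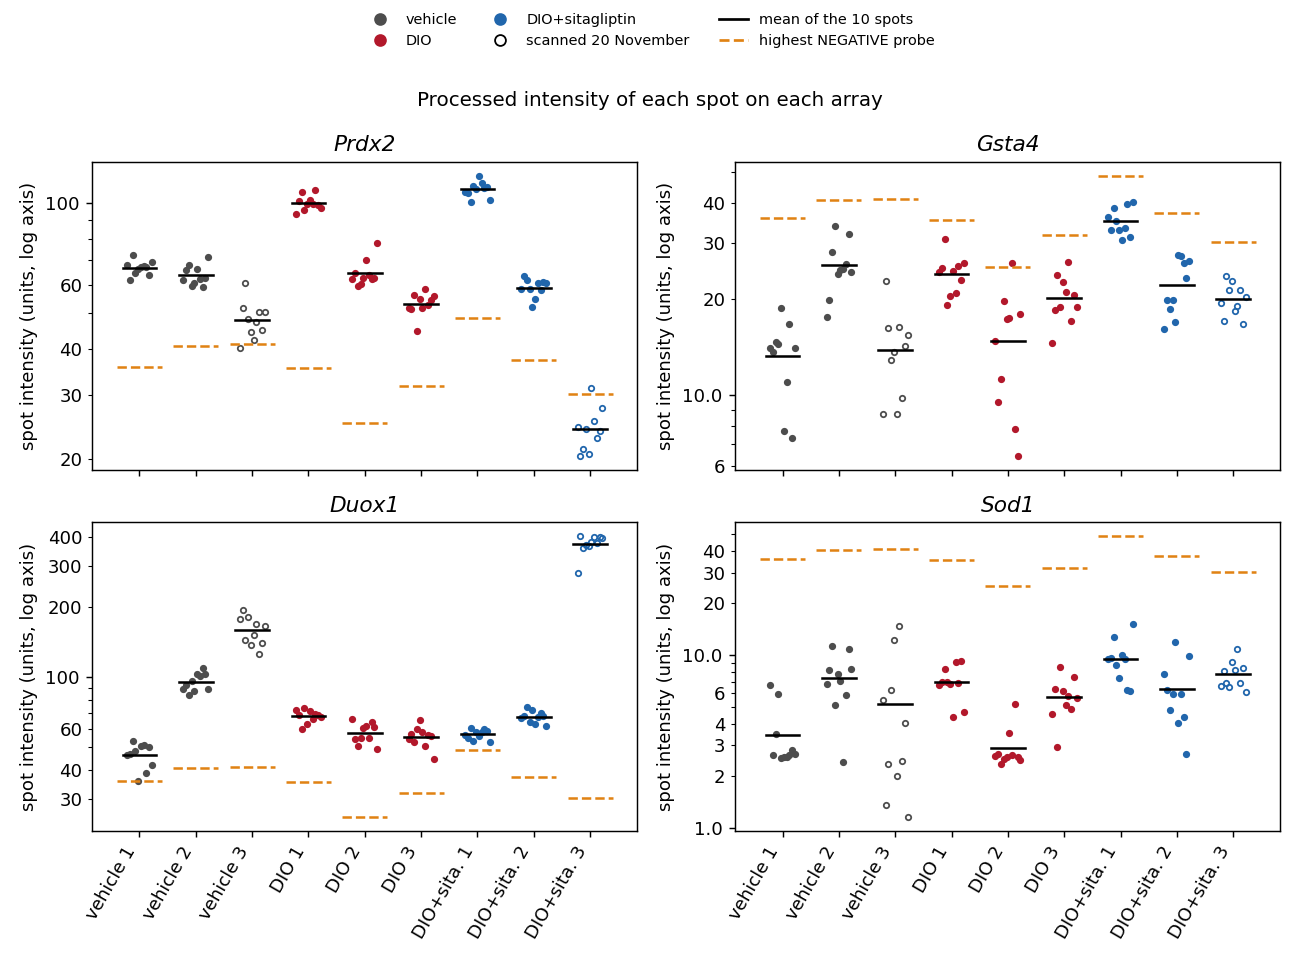
Processed intensity of the 10 spots of each member on each array, in scanner units on a log axis. Points are spots, black lines their mean, and dashed lines the brightest NEGATIVE probe of that array. Duox1 lay at 159 and 375 units on the arrays of 20 November (open circles) and between 46.2 and 95.5 units on the others, while the means of Gsta4 and Sod1 lay below the dashed line on every array.

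Duox1, the peroxide-producing oxidase, had the widest range of the 4 genes. It read 46.2, 95.5 and 159 units in the 3 vehicle aortas, 68.1, 57.7 and 55.5 units in the 3 DIO aortas and 56.7, 67.5 and 375 units in the 3 DIO+sitagliptin aortas. Both high values, 159 and 375 units, belong to the arrays scanned on 20 November, and the groups overlap. All 90 Duox1 spots were marked as well above background, and its mean exceeded the brightest NEGATIVE probe on all 9 arrays, by 1.17 to 12.4 times. The 10 spots of an array agreed closely, with coefficients of variation of 4.58% to 13.9%. On the log2 scale, before normalization, the SD between spots was 0.14 and that between arrays of 1 group was 1.01. The spread of Duox1 therefore lies between arrays and not between spots, although mouse, RNA preparation and hybridization cannot be told apart at 1 array per mouse. In bulk tissue, fewer cells that express a gene and less RNA per cell cannot be told apart either.

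After quantile normalization, which gives every array the same distribution of log2(intensity + 1), Duox1 stood at 6.54 ± 1.46 (SD, n = 3) in DIO+sitagliptin, 6.50 ± 0.88 in vehicle and 5.95 ± 0.15 in DIO. Neighbours in this order did not differ beyond their spread. The DIO group was the tightest, and all of its arrays share the earlier date. DIO+sitagliptin exceeded DIO by 0.59 ± 0.70 (SE, 95% interval -0.96 to 2.15), and DIO differed from vehicle by -0.55 ± 0.70 (95% interval -2.10 to 1.00), or by -0.93 without vehicle 1. Within the arrays of 12 November these values were -0.23 (2 arrays against 3) and -0.07 (3 against 2), so the first changed sign and the second nearly vanished. With scan date as a term they were -0.061 and 0.10. DIO+sitagliptin and vehicle differed by 0.04 ± 0.70 over all arrays and by -0.30 within 12 November. Leaving out DIO+sitagliptin 3 alone turned this last difference to -0.78, and leaving out vehicle 1 or vehicle 2 also made it negative, at -0.33 and -0.065. The arrays of 20 November hold 1 vehicle and 1 treated aorta and give no comparison with DIO.

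Sod1 was below the brightest NEGATIVE probe on every array, and below the median NEGATIVE probe on the arrays of 12 November. Its probe read 3.45, 7.34 and 5.20 units in the vehicle aortas, 6.99, 2.91 and 5.73 units in the DIO aortas and 9.48, 6.35 and 7.76 units in DIO+sitagliptin. Each of these values is at most 0.258 times the brightest NEGATIVE probe of its array. Of its 90 spots only 12 carried the mark for signal well above background, 9 of them on DIO+sitagliptin 3 and 2 on vehicle 3. On these arrays of 20 November, Sod1 was 3.67 and 3.94 times the NEGATIVE median, which was 2.12 and 1.32 units. The probe was left out of the tests, since fewer than 3 arrays had at least 0.5 of its spots above background. Its normalized means were 2.84 ± 0.68 in vehicle, 2.31 ± 0.09 in DIO and 2.93 ± 0.96 in DIO+sitagliptin, with the highest value of both wider groups on an array of 20 November. No difference in Sod1 was detectable with this probe.

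Prdx2, the peroxiredoxin, was measured above background nearly throughout. It read 66.7, 63.6 and 48.1 units in the vehicle aortas, 101, 64.5 and 53.2 units in the DIO aortas and 109, 58.9 and 24.2 units in DIO+sitagliptin. The treated group holds both the highest and the lowest Prdx2 value of the series, and the groups overlap. All 90 spots were marked as well above background, and the mean exceeded the brightest NEGATIVE probe on 8 of 9 arrays. The exception was DIO+sitagliptin 3, at 0.803 times that probe, although at 11.4 times the median NEGATIVE probe of that array. The SD between spots was 0.11 on the log2 scale, against 0.69 between arrays of 1 group, before normalization.

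Normalized Prdx2 was 6.16 ± 0.24 (SD, n = 3) in DIO, 5.95 ± 0.87 in DIO+sitagliptin and 5.92 ± 0.27 in vehicle, an order in which neighbours again did not differ beyond their spread. DIO exceeded vehicle by 0.24 ± 0.46 (SE, 95% interval -0.78 to 1.26), a value that became -0.11 with median scaling in place of quantile normalization. DIO+sitagliptin differed from DIO by -0.21 ± 0.46 (95% interval -1.23 to 0.81) and from vehicle by 0.03 ± 0.46 (95% interval -0.99 to 1.05). Within 12 November the 3 values were 0.21, 0.17 and 0.38 in the same order. Leaving out single arrays made the treated-minus-vehicle value negative without DIO+sitagliptin 1 (-0.44), vehicle 2 (-0.082) or vehicle 3 (-0.0035). The treated side of Prdx2 also turned from lower to higher than DIO once DIO+sitagliptin 3, its dimmest array, was left out.

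Gsta4, the aldehyde-conjugating transferase, was dim. It read 13.2, 25.5 and 13.9 units in the vehicle aortas, 23.9, 14.8 and 20.2 units in the DIO aortas and 35.0, 22.2 and 19.9 units in DIO+sitagliptin. The groups overlap, and all 9 values lie below the brightest NEGATIVE probe, at 0.337 to 0.722 times its intensity. Against the median NEGATIVE probe they were 1.24 to 1.59 times on the arrays of 12 November. On vehicle 3 and DIO+sitagliptin 3 they were 10.5 and 9.43 times that median. Of the 90 spots, 82 were marked as well above background, with 6 of 10 on vehicle 1 and on DIO 2. Spots of 1 array varied by up to 40.9% (coefficient of variation). Their SD on the log2 scale was 0.33, against 0.44 between arrays of 1 group before normalization and 0.32 after it. For Gsta4 single spots thus varied about as much as array values, unlike for Duox1 and Prdx2. Each array value is a mean of 10 spots, which varies less than a single spot. The 2 SDs therefore do not give the share of spot noise in the array values.

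Normalized Gsta4 was 4.53 ± 0.44 (SD, n = 3) in DIO+sitagliptin, 4.31 ± 0.30 in vehicle and 4.10 ± 0.15 in DIO. Its difference between DIO+sitagliptin and DIO was 0.44 ± 0.33 (SE, 95% interval -0.30 to 1.17), and that between DIO and vehicle -0.21 ± 0.33 (95% interval -0.95 to 0.53). Treated and vehicle aortas differed by 0.23 ± 0.33 (95% interval -0.51 to 0.96). Within the arrays of 12 November these values shrank to 0.20, -0.04 and 0.17. Without DIO+sitagliptin 3 alone, treated and vehicle aortas differed in Gsta4 by -0.0051. The treated-minus-DIO value of Gsta4 was above 0 in each of the 22 other settings tried, at 0.20 to 0.64. Many of these settings cannot change it and return 0.44. They are other filters, leaving out a vehicle array, fitting only the arrays compared, replicate blocks and no intensity trend. The rest reuse the same arrays, so the count of settings is no added evidence of a rise. The intensities of Gsta4, moreover, are below the brightest NEGATIVE probe on every array.

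**Figure D2:**
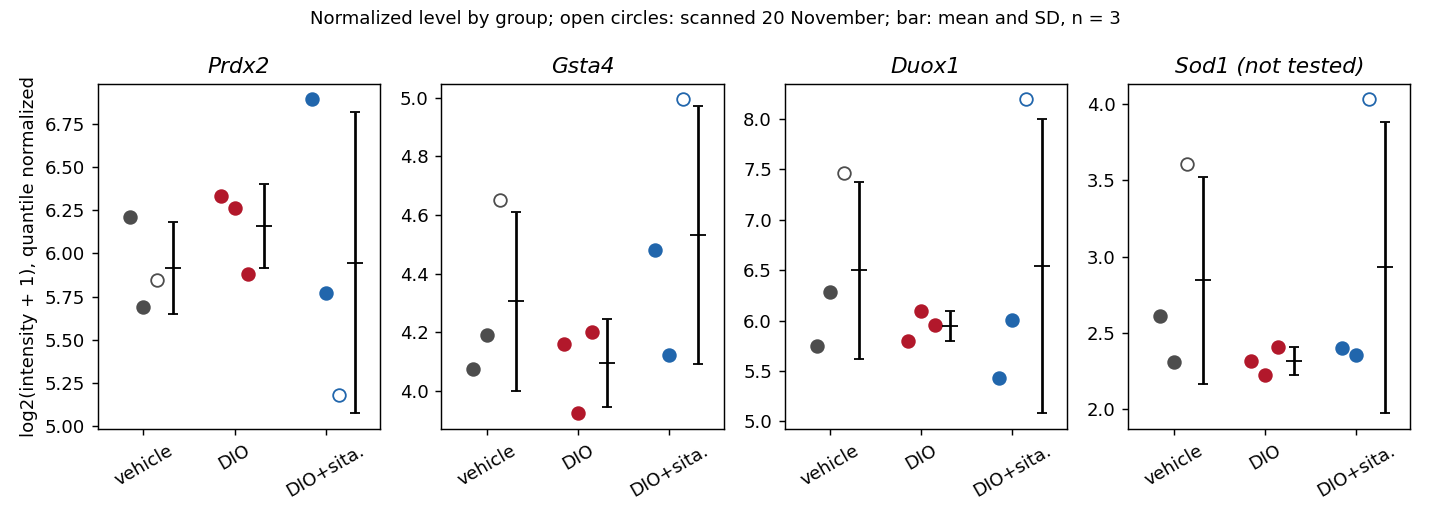
Normalized log2(intensity + 1) of each member by group. Points are mice, open circles the arrays of 20 November, and bars the mean and SD of 3 mice. For Duox1, Gsta4 and Sod1 the highest vehicle value and the highest treated value are both open circles.

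None of the 3 members tested passed in any comparison. In DIO against vehicle their limma adjusted p was 0.925 to 0.926, with 0% of all 49360 probes called at an adjusted p under 0.05, and 354 probes at an unadjusted p under 0.05. In DIO+sitagliptin against DIO the limma adjusted p of all 3 was 1.000, with 0% of probes called and 114 at an unadjusted p under 0.05. In DIO+sitagliptin against vehicle it was likewise 1.000, with 0% called and 713 at an unadjusted p under 0.05. With no difference between groups a share of 0.05 of the probes would be expected under that unadjusted threshold, and each of these counts is below it. That share presumes a fit that describes the spread between arrays. The fit has no scan-date term, so its p-values need not follow that share. Counts below it are no evidence that the groups are alike. The smallest unadjusted p of a member was 0.218, for Gsta4 in DIO+sitagliptin against DIO. Exact two-sided permutation p-values over the 20 splits of 6 arrays ran from 0.2 to 1 for the 4 members, where 0.1 is the smallest that 3 against 3 allows. The groups overlapped for every member in every comparison. Among all probes they did not overlap in 7.41% for DIO against vehicle, 3.32% for DIO+sitagliptin against DIO and 4.04% for DIO+sitagliptin against vehicle. Each is below the share of 0.1 that 3 against 3 would give with no difference if the arrays were exchangeable. The scan dates break this, with both later arrays above all earlier ones for 20.9% of all probes and below them for 28.9%. For such probes vehicle and DIO+sitagliptin, which each hold a later array, overlap whatever the treatment does. A share below 0.1 is thus no sign that the groups are alike. A moderated F-test over the 3 groups gave each tested member an adjusted p of 0.998. These comparisons share groups and are not independent of each other.

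**Figure D3:**
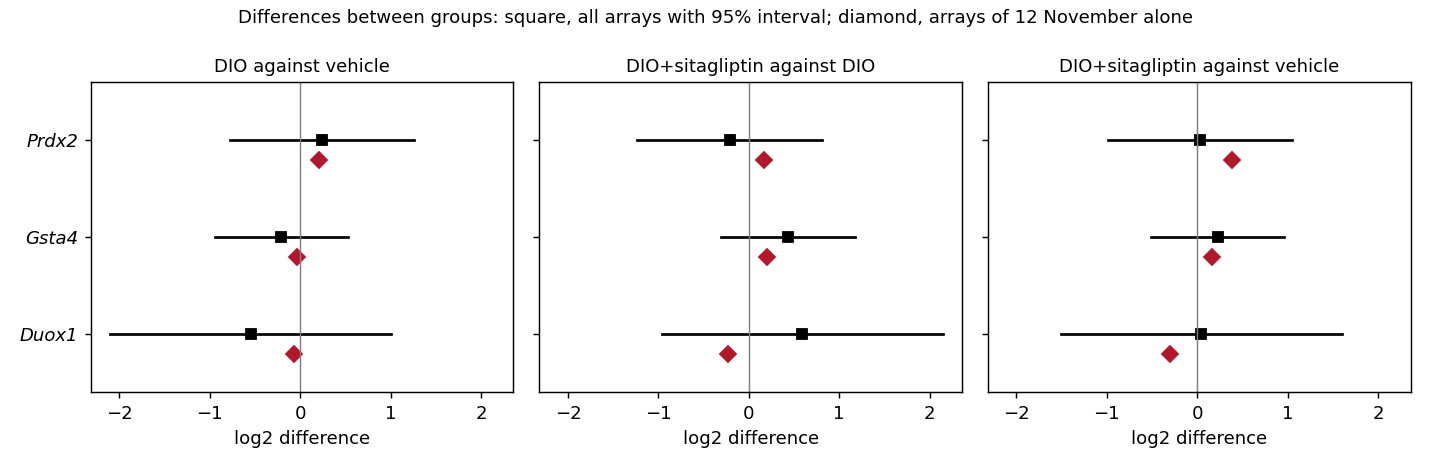
Log2 differences of the 3 tested members in each comparison. Squares are the limma estimates from all arrays with their 95% intervals, and diamonds the difference of means within the arrays of 12 November. Every interval spans 0, and the diamond of Duox1 in DIO+sitagliptin against DIO lies at -0.23 while its square lies at 0.59.

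The interval sizes bound what the fit without scan date as a term can say. For Prdx2 in DIO+sitagliptin against DIO the interval holds changes from -1.23 to 0.81 on the log2 scale, and for Duox1 from -0.96 to 2.15. A rise of 1 on this scale is thus within the interval for Duox1 and outside it for Prdx2, while a fall of 1 is within it for Prdx2 and just outside it for Duox1. The intervals are not adjusted for the number of probes. With scan date as a term the differences were -0.0033 for Prdx2 and -0.061 for Duox1. The intervals of that fit are not given, and these bounds need not hold for it. In size, the Duox1 difference between DIO+sitagliptin and DIO was exceeded by 16.2% of all probes tested, that of Gsta4 by 28.8% and that of Prdx2 by 59.3%.

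Duox1 makes peroxide and Prdx2 removes it. The ratio of their intensities within an array, which no linear scaling between arrays changes, came to 0.692, 1.50 and 3.31 for the vehicle mice, 0.677, 0.895 and 1.04 for the DIO mice and 0.519, 1.15 and 15.5 for the treated mice. The value of 15.5 is not exact, since Prdx2 on DIO+sitagliptin 3 was below the brightest NEGATIVE probe, and the other 8 ratios ran from 0.519 to 3.31. The highest ratios, 3.31 and 15.5, fall on the arrays of 20 November, and the lowest falls on DIO+sitagliptin 1, so the groups overlap. The 2 scan dates form separate clusters, and no correlation over all 9 arrays is given. Over the 7 arrays of 12 November normalized Prdx2 and Duox1 had Pearson r = -0.85 (exact permutation p = 0.0192, adjusted over 6 pairs of members 0.115) and Spearman rho = -0.71 (exact permutation p = 0.0881, adjusted 0.264). Without the 2 arrays farthest from the median Prdx2 level r was -0.36, so the relation rests on those arrays and did not pass the adjustment. The other 5 pairs had r between -0.63 and 0.47, with exact permutation p-values adjusted over the 6 pairs of 0.351 to 0.849, and rho between -0.71 and 0.29, with adjusted values of 0.264 to 0.906.

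**Figure D4:**
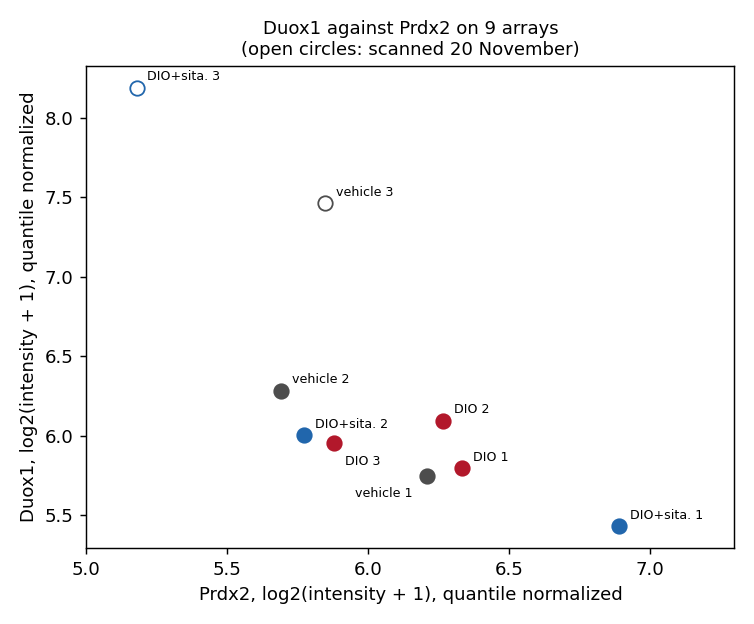
Normalized Duox1 against normalized Prdx2, both as log2(intensity + 1), on the 9 arrays, coloured by group (grey vehicle, red DIO, blue DIO+sitagliptin). Open circles are the arrays of 20 November, which lie at Duox1 levels of 7.46 and 8.19, above the other 7 arrays at 5.43 to 6.28.

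The genes most like each member over these 7 arrays were read from the 39 other named genes that were tested, as a description. Duox1 was most like Lhx1 (r = 0.93), Gamt (r = 0.86) and Chgb (r = 0.82). Among the genes given here, Prdx2 was most like Nup50 (r = 0.90) and Rps4l (r = 0.84), and Gsta4 was most like Rps4l (r = 0.84), Alkbh4 (r = 0.73) and Il2 (r = 0.66). All points share the arrays and their scaling.

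The offset of Duox1 between scan dates exceeded each of its differences between groups. On the 2 arrays of 20 November its normalized mean was 7.83, against 5.90 ± 0.27 (SD) on the 7 others. The offset of 1.93 was the highest positive one of the 40 named genes tested, while Il2 had a larger one in size, at -2.62. It stood ahead of Gm9789 at 1.76 and Olfr166 at 1.75, and 5.84% of all probes had a higher one. The offset of Duox1 was 2.97 with median scaling and 1.95 without normalization. After quantile normalization both later arrays lay above all 7 earlier ones for Duox1 and Gsta4, as they did for 20.9% of all probes, and below them for 28.9%. Gsta4 had an offset of 0.66, with means of 4.82 and 4.17, and of 0.70 with median scaling, but of -0.32 without normalization, where the median of all probes was -0.87. The direction for Gsta4 thus depends on the scaling. Prdx2 had an offset of -0.64 with overlapping values, of -0.027 with median scaling and of -1.05 without normalization, where both later values lay below all earlier ones. Of the marker genes with a named probe, Il2, a T-cell cytokine, stood at 4.48 on the later arrays and 7.10 on the earlier ones, Mzb1, a plasma-cell chaperone, at 4.83 and 5.85, and Chgb, a granule protein of neuroendocrine cells, at 4.51 and 4.64. The log2 ratio of the mouse GAPDH control probes named for the 5′ and 3′ ends was 2.48 on vehicle 3 and 1.75 on DIO+sitagliptin 3. On the earlier arrays it was 1.20 to 1.62 for those numbered 1 and -0.50 to 0.023 for the others. Both later arrays thus lay above every earlier one, and the earlier arrays numbered 1 lay above the other earlier ones. What this ratio means for RNA integrity was not examined here. The part of these cell types and of this ratio in the Duox1 values was not tested.

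**Figure D5:**
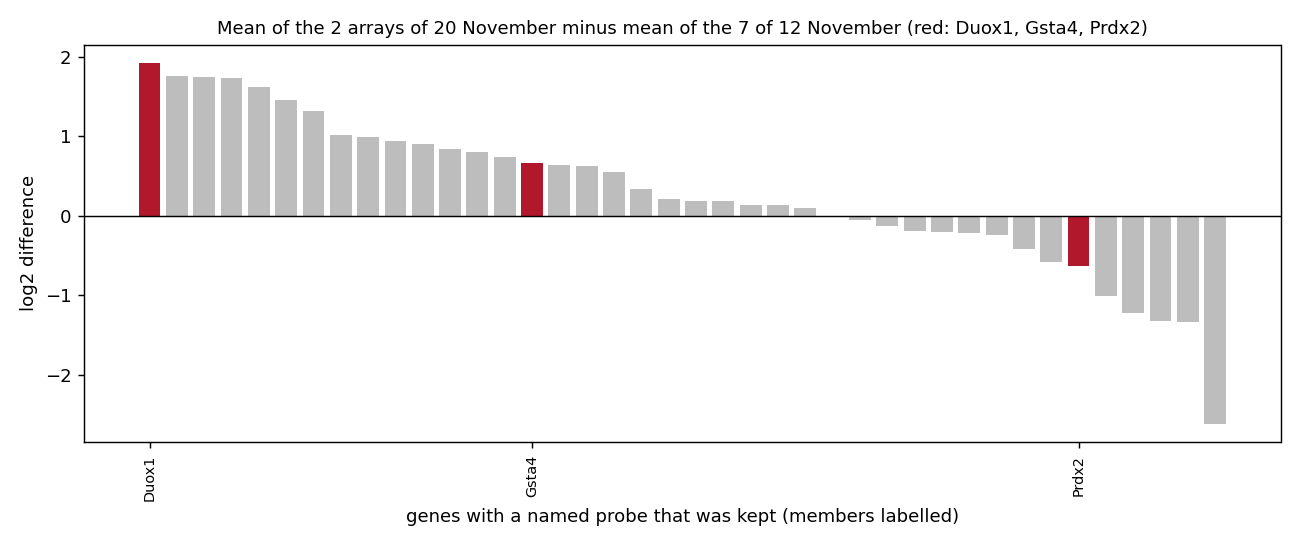
Mean normalized log2 level on the 2 arrays of 20 November minus that on the 7 arrays of 12 November, for the 40 named genes tested, in order of size. Red bars, labelled on the axis, are the members, with Duox1 at 1.93, Gsta4 at 0.66 (-0.32 without normalization) and Prdx2 at -0.64.

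The wider redox system could hardly be read. Lists of 109 genes covered peroxide removal, superoxide dismutases, oxidant-producing oxidases, glutathione conjugation, the thioredoxin and glutaredoxin systems and the Nrf2 axis with its targets. Only the 4 members had a named probe, 1 of 13 genes of peroxide removal, 1 of 4 dismutase genes, 1 of 21 oxidase genes and 1 of 35 conjugation genes, and none of the 18 thioredoxin or the 18 Nrf2 genes did. Of these 4, 0 rose and 0 fell in any comparison, with 3 tested. Over the 3 tested members the median difference was -0.21 in DIO against vehicle, beside 0.055 over all probes. It was 0.44 in DIO+sitagliptin against DIO, beside -0.049. Both are the values of Gsta4, and Prdx2 (0.24 and -0.21) and Duox1 (-0.55 and 0.59) went opposite ways. In DIO+sitagliptin against vehicle the median was 0.042, the value of Duox1, beside 0.0041. A median of 3 genes of unlike function does not describe a shift of the redox system.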

How the data were processed

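Total RNA of 9 aortas was labelled with Cy3 and hybridized to 1 array each, per the labels' protocols. The deposited values are spot intensities, which per the file headers come from Agilent Feature Extraction (version 11.0.1.1) after background subtraction and detrending. The flags for well above background, another deposited column, are 1 or 0. The headers record no scaling between arrays and name the mm9 build, so no array coordinates are used. Mice are separate animals by the series' design.

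The log2 of intensity plus 1 was taken, averaged over spots and quantile normalized. Fold changes on this scale understate changes of dim probes. Probes with at least 0.5 of their spots well above background on at least 3 arrays were kept, 49360 of 60823. limma 3.58.1 in R 4.3.3 fitted all 9 arrays with a coefficient per group and an intensity trend, and Benjamini-Hochberg adjustment ran over all kept probes. The fit was tested on simulated data with independent arrays and no scan-date shift, so that test does not cover arrays split by scan date. RefSeq of GRCm38.p6 named 46 of the 50 probes printed as 10 spots, GENCODE M21 named 3 and 1 had no name. Python 3.11.15 with scipy 1.17.1 and matplotlib 3.10.9 served for the permutation tests and plots.

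The members, lists, tests and alternatives were chosen with earlier results of these data known. Named genes are the members, the redox genes with a kept named probe and, for each tested member, the 3 named genes with the highest r over the arrays of 12 November, of which 1 for Prdx2 is not reported here. A few further genes beside the scan-date offset were named after their values were seen. The lists of cell type markers hold 57 genes, of which Il2, Mzb1 and Chgb had a named probe. Replicate numbers are shared between groups. Deviations of same-numbered vehicle and DIO+sitagliptin arrays correlated at 0.67, 0.65 and 0.76, over the limit of 0.1 for pairing. The other pairs of groups each had at least 1 negative value. Vehicle 3 and DIO+sitagliptin 3 are the only arrays of the later scan date. Deviations within a group depend on each other, so a shift by scan date can raise all 3 correlations. These correlations therefore cannot tell pairing by replicate number from scan date, and pairing apart from scan date was not tested. Alternatives covered scaling, signal column, pseudocount, filter, spots, arrays left out, scan date, replicate block and variance trend.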

Additional observations from a re-analysis of the deposited data

How the results depend on the processing

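Each of the 9 tested differences was recomputed under 22 alternatives, and 180 of the 198 values kept their direction and stayed short of the threshold. The other 18 changed sign, and none passed. Many alternatives cannot change a difference and can change only its p-value. They are the filters, leaving out an array of the group not compared, fitting only the 6 arrays compared, the replicate blocks and the variance trend. The 180 values include these, so they overstate how stable the directions are. The smallest adjusted p was 0.486, for Duox1 in DIO+sitagliptin against vehicle without DIO+sitagliptin 3 (limma, 0.486 to 1.000 over its alternatives). All 66 refits called 0 probes. An unadjusted p under 0.05 gave 354, 114 and 713 in DIO against vehicle, DIO+sitagliptin against DIO and DIO+sitagliptin against vehicle. Each is below the share of 0.05 expected with no difference, which need not hold for a fit without scan date as a term. In DIO against vehicle, Prdx2 was -0.11 with median scaling, Gsta4 0.19 and Sod1 0.083 without normalization, and Duox1 0.10 with scan date as a term. In DIO+sitagliptin against DIO, Prdx2 was 0.17 and Duox1 -0.23 without both arrays of 20 November, and Duox1 -0.061 with scan date. In DIO+sitagliptin against vehicle, Prdx2 was -0.41 with median scaling and -0.12 without normalization, and Duox1 -0.30 without both later arrays. Leaving out single arrays gave 0.13 to 0.39 for Prdx2, -0.93 to -0.068 for Duox1 and -0.32 to -0.037 for Gsta4 in DIO against vehicle. The ranges were -0.68 to 0.17 for Prdx2 and -0.23 to 1.15 for Duox1 in DIO+sitagliptin against DIO. In DIO+sitagliptin against vehicle it gave -0.44 to 0.42 for Prdx2, -0.78 to 0.60 for Duox1 and -0.0051 to 0.43 for Gsta4. Without normalization the median of all probes was 0.26 in DIO against vehicle and 0.19 in DIO+sitagliptin against vehicle, and with median scaling -0.10 and -0.09, against 0.055 and 0.0041 in the values reported. The causes of these changes were not tested. With the replicate block the differences are the same by construction (Prdx2 0.03 in DIO+sitagliptin against vehicle), and it changed no call. A block within the 6 arrays compared changed none either, and this block and the rescaled scan-date offsets were added after seeing the data. Signal over background limits Gsta4 and Sod1.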
